A study of Mus musculus with 6 samples.

Results

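Antisense transcripts of neonatal mouse cardiomyocytes (CMs), and the protein-coding genes that lie opposite them, were compared between cultures treated with DMSO and with α-ketoglutarate (αKG). The members were the 890 of 20066 listed genes that carry the Ensembl biotype antisense. Each was paired with the protein_coding gene that overlaps it longest on the opposite strand, which gave 808 pairs with 773 coding partners. The remaining 82 antisense transcripts had no such partner in the table: 46 lie opposite no annotated gene, 10 lie opposite a gene of another kind, and 26 lie opposite a coding gene that was not listed. The CMs came from C57BL/6 pups at P0–1 and were cultured for 96 h with DMSO (3 libraries) or with cell-permeable αKG (3 libraries), which the labels give at 100 µM and the study's methods at another concentration. αKG is a metabolite of the citric acid cycle and a co-substrate of demethylases that act on histones and DNA. In their section on staining, the study's methods describe each sample of neonatal CMs as a separate isolation from pooled hearts. Their RNA-seq section does not state this for these libraries. No sorting of the neonatal cells was described, so that other cells of the heart could be present.

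Natural antisense transcripts are RNAs read from the strand opposite a coding gene. Some of them start at the promoter of their neighbour, others run through its 3′ end or lie within its introns. Well-studied examples silence genes on the chromosome they are read from, as *Kcnq1ot1* and *Airn* do at imprinted genes and *Tsix* does at *Xist*, while others serve as precursors of microRNAs or bind chromatin proteins in the nucleus, and in the heart *Mhrt* is read opposite the myosin heavy chain genes.

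The values are normalised read counts, and 1 read was worth between 0.926 and 1.12 units in the 6 libraries. Estimated reads in listed genes lay between 3726069 and 4427587 per library. In a principal component analysis of all genes, αKG replicate 3 (−21.4 on the first component, which held 52.9% of the variance) lay nearer to the DMSO libraries (−46.7 to −36.3) than to αKG replicates 1 and 2 (76.7 and 71.4), so results are also given without it. Calls without it rest on αKG replicates 1 and 2 alone, and their p-values leave out the spread that replicate 3 adds. The summed level of 6 cardiomyocyte markers was 19949 to 20523 in DMSO and 24494, 23745 and 20681 in αKG replicates 1 to 3. The 5 endothelial markers summed to 1274 to 1429 in DMSO and to 643, 582 and 858 in αKG, with 4 of 5 called lower. The other, *Tek*, was at 65, 71 and 58 against 115, 96 and 54. Sums for 6 fibroblast markers were 2418 to 2581 against 5603, 5435 and 2461, with 0 called. Among these the collagen genes differed most, *Col1a1* at 1018, 1006 and 951 against 2402, 2288 and 1042 and *Col1a2* at 645, 620 and 581 against 1872, 1780 and 689. *Tcf21* was not higher, at 56, 65 and 63 against 58, 62 and 39. Sums for 6 epicardial markers were 415 to 454 against 911, 907 and 424, and for 6 mural markers 2190 to 2336 against 3252, 2890 and 2576. For the 4 of 6 macrophage markers that were listed it was 22 to 35 against 29, 41 and 24. In bulk RNA, fewer cells of a type and less RNA per cell cannot be told apart.

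Sequence shared with the coding strand sets what a read can tell. The library kit keeps strand, but the counting was not stated to use it, and reads that overlapped several genes were left out. Where strand was not used, a read from an antisense transcript and one from its partner cannot be told apart, and those from bases that both genes use in their exons would be dropped. The stretches below show this for 6 pairs in which exons of the antisense transcript lie opposite coding exons of the partner. They are GENCODE M21 transcript sequences (GRCm38), given 5′ to 3′ on the antisense strand. Capitals mark the bases opposite a coding exon, of which at most 150 are shown, and lower case marks antisense bases next to it with no partner exon opposite. The reverse complement of each capital stretch was found in a transcript of the partner.
*Gm31251* opposite *Myh7*, chr14:54979393-54979542, plus strand: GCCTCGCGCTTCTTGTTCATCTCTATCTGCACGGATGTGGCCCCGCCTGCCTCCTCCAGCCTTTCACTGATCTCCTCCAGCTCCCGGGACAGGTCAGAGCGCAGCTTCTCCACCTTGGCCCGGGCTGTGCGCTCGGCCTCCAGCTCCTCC
*Mhrt* opposite *Myh7*, chr14:54973878-54974027, plus strand: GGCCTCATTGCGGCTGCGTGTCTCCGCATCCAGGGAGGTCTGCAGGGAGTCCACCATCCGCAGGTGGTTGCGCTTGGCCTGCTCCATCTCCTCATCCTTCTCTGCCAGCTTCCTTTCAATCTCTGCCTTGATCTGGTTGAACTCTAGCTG
*Kcnq1ot1* opposite *Kcnq1*, chr7:143261241-143261391, minus strand: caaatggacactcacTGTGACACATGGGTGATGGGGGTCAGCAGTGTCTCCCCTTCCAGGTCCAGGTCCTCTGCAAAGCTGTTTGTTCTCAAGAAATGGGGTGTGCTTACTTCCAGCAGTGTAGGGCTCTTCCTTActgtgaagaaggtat
*A030001D20Rik* opposite *Rasip1*, chr7:45636432-45636596, minus strand: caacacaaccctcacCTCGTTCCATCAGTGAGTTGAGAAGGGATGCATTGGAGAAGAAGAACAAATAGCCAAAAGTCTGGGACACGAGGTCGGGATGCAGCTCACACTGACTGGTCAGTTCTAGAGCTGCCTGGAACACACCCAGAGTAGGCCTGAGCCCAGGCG
*6230400D17Rik* opposite *Sec24c*, chr14:20688371-20688539, minus strand: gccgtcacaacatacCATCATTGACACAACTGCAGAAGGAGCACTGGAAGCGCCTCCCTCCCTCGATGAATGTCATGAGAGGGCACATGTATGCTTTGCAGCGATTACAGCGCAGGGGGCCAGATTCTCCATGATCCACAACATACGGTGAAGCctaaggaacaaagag
*Gm12352* opposite *Mien1*, chr11:98438065-98438160, plus strand: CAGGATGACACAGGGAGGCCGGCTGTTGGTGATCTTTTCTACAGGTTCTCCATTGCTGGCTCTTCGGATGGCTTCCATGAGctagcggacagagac
In all, 523 exonic bases of *Gm31251* and 463 of *Mhrt* lie opposite *Myh7* coding sequence, whereas the single exon of *Kcnq1ot1*, which spans 93090 bases, meets coding sequence of *Kcnq1* in 121. The exons of *D830024N08Rik*, *Dnm3os*, *D830005E20Rik* and *Airn* meet no partner exon.

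Promoters of the imprinted antisense transcripts *Kcnq1ot1* and *Airn* are shown because both transcripts were highest in αKG replicates 1 and 2. Both are from RefSeq (GRCm38.p6), from 250 bases before to 50 bases after the start. Capitals mark matches on either strand to the letters TATAA of the usual core promoter element, to those of the nuclear factor Y element, CCAAT, and to GGGCGG, which specificity protein factors bind.
*Kcnq1ot1*, chr7:143296498-143296797, minus strand: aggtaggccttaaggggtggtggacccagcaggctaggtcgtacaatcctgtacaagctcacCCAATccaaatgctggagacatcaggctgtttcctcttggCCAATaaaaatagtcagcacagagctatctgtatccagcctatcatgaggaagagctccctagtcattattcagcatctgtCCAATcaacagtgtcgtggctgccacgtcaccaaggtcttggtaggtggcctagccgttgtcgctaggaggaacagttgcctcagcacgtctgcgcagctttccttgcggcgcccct
*Airn*, chr17:12741061-12741360, plus strand: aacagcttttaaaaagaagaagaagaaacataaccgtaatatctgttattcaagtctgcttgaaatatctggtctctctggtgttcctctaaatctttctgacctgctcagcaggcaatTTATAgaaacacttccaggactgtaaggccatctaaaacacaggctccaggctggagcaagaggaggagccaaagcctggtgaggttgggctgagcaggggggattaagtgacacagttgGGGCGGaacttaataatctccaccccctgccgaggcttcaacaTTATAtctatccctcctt
The *Kcnq1ot1* promoter held 3 matches to CCAAT, and 3.56% of 27025 RefSeq promoters of this length held as many. That of *Airn* held 2 matches to TATAA and 1 to GGGCGG. Of the antisense transcripts, 350 had a promoter of this kind, and 17.4% of these held TATAA, 33.7% CCAAT and 41.7% GGGCGG, against 25.5%, 37.9% and 35.9% of all promoters. A match is a description of these letters only.

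Most antisense transcripts were scarce. Their mean over the 6 libraries had a median of 3 units, 198 of 890 reached a mean of 10, 19 reached 100, and 367 were at 0 in at least 1 library. The 10 most abundant held 36.5% of all antisense signal. Per kilobase of exon, the median ratio of an antisense transcript to its partner was 0.0517, and 93 of 806 antisense transcripts stood above their partner. Of the 808 pairs, 347 had the antisense transcript inside the partner, 258 were head to head (the 5′ ends overlap), 182 tail to tail (the 3′ ends overlap), and in 21 the partner lay inside the antisense transcript. Exons of both overlapped in 633 pairs, although a median of only 15.2% of the antisense exonic bases lay opposite partner exons. The median overlap of the gene bodies was 2692 bases, 31 partners were shared by up to 3 antisense transcripts, and 84 antisense transcripts overlapped more than 1 coding gene.

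Antisense transcripts as a class were slightly more abundant in αKG at the authors' scaling, and few of them passed the test one by one. Their summed value was 11347, 11644 and 11753 in the DMSO libraries and 14859, 14672 and 12202 in the αKG libraries, or 0.279 to 0.288% and 0.296 to 0.357% of all listed signal. All αKG libraries lay above all DMSO libraries, and replicate 3 was the lowest of the 3. *Kcnq1ot1* alone accounted for a large portion of the gap, and without it the sums were 10742, 10895 and 11166 in DMSO against 12679, 12392 and 11451 in αKG. The median log2 difference, αKG minus DMSO, was 0.14 over the 890 antisense transcripts and 0.04 over all genes, and it was 0.12 with libraries scaled to the same total but −0.19 with quantile normalisation, so that its direction depends on the scaling. It was 0.20 and 0.20 in αKG replicates 1 and 2 and 0.02 in replicate 3. The medians over antisense transcripts and over all genes are not matched for level. Under a mean of 3 the median was 0.23 for antisense transcripts and 0.33 for other genes. At 3 to 10 it was 0.07 against 0.35, and at 10 to 50 it was 0.02 against 0.33. At 50 or more it was 0.11 against −0.08. The median over the coding partners was −0.04 and −0.03 over all protein_coding genes.

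By limma on log2(value + 1), 6 antisense transcripts were called higher in αKG at a Benjamini-Hochberg adjusted p under 0.05 and 0 were called lower, which is 0.674% of 890. Over all genes 3.78% were called, 2.83% as higher and 0.952% as lower. At an unadjusted p under 0.05 there were 90 antisense transcripts (67 higher, 23 lower), or 10.1% against 28.1% of all genes. The 3 values of each group did not overlap for 69 antisense transcripts that were higher (7.75%, against 13.7% of all genes) and for 27 that were lower (3.03%, against 14.6%). The shares differed by level. At an unadjusted p under 0.05, antisense transcripts stayed below other genes except at a mean of 50 or more. They were 6.61% against 9.84% under a mean of 3, and 9.49% against 19.2% at 3 to 10. At 10 to 50 it was 12.6% against 32.1%, and at 50 or more 43.6% against 37.0%. By adjusted p, among genes with a mean of 10 to 50, 0 of 159 antisense transcripts and 4.27% of 3067 other genes were called, while at 50 or more it was 4 of 39 antisense transcripts (10.3%) and 5.86% of 10144 others. Of the 890, 692 lay below a mean of 10, where other genes were seldom called either. Called shares there were 0.395% of antisense transcripts and 0.964% of others at 3 to 10, and 0.228% and 0.115% under 3. Without αKG replicate 3 the test called 102 antisense transcripts (67 higher, 35 lower), or 11.5%, when it called 37.2% of all genes.

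**Figure D1:**
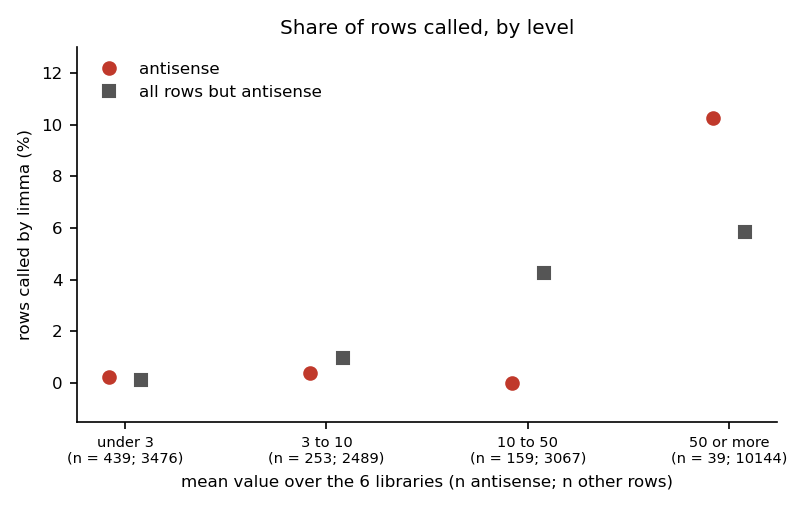
Share of genes called by limma (vertical axis, percent) against the mean value over the 6 libraries (horizontal axis, 4 classes), for antisense transcripts (circles) and all other genes (squares), with the number of genes in each class below the axis. Antisense transcripts were called in 10.3% of cases at a mean of 50 or more and in 0 of 159 cases at 10 to 50.

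The called antisense transcripts with a mean of at least 10 numbered 4. *Gm41505*, on the plus strand at chr16:94721894-94753438, stood at 7, 17 and 18 in DMSO and at 98, 111 and 66 in αKG. The groups were far apart, with a log2 difference of 2.69 ± 0.36 (SE, adjusted p = 0.00879). Its partner *Kcnj6*, an inward rectifier potassium channel that it meets tail to tail over 4803 bases, was close to absent, at 0 in all DMSO libraries and at 0, 6 and 1 in αKG, so that *Gm41505* rose at a locus whose coding gene was hardly read. *Gm30873* lies inside *Arnt2*, a bHLH-PAS transcription factor that pairs with other factors of its family. It was at 35, 28 and 42 in DMSO and at 81, 90 and 88 in αKG (log2 difference 1.30 ± 0.20, adjusted p = 0.0159). Here replicate 3 was as high as the other αKG libraries. *Arnt2* itself was at 52, 56 and 53 against 110, 91 and 70, with no overlap and a log2 difference of 0.72 ± 0.19 that did not pass (adjusted p = 0.0627).

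*Hectd2os* meets *Hectd2*, which encodes a HECT-type ubiquitin ligase, tail to tail over 7084 bases. It was at 38, 26 and 19 in DMSO and at 128, 164 and 73 in αKG, a log2 difference of 2.07 ± 0.33 (adjusted p = 0.0189). *Hectd2* was at 102, 125 and 117 against 149, 154 and 170, and its log2 difference of 0.46 ± 0.13 did not pass (adjusted p = 0.0704). In both genes every αKG library exceeded every DMSO library, but the lowest αKG library was replicate 3 for the antisense transcript and replicate 1 for the coding gene. *D830024N08Rik* lies inside *Tecr*, the last enzyme of the fatty acid elongation cycle, and shares no exonic base with it. It was at 108, 82 and 70 in DMSO and at 302, 252 and 140 in αKG (log2 difference 1.36 ± 0.27, adjusted p = 0.0354), while *Tecr* was at 259, 267 and 248 against 210, 223 and 217 (−0.25 ± 0.09, adjusted p = 0.12). This was the single called antisense transcript whose partner lay lower in every αKG library.

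The other 2 calls were of transcripts with a mean under 10, which the naming rule leaves out and which are given for completeness. *9130015G15Rik*, inside *Nav2*, was at 0, 2 and 1 in DMSO and at 13, 7 and 6 in αKG (adjusted p = 0.0473), and *Gm19557*, inside *Stn1*, was at 0 in all DMSO libraries and at 6, 4 and 4 in αKG (adjusted p = 0.0293). These values are a few reads each. All 6 calls were kept without αKG replicate 3, with adjusted p between 0.00173 and 0.0166. With the replicate number as a block, *Hectd2os* (adjusted p = 0.0474) and *D830024N08Rik* (0.0499) kept the call and *Gm41505* (0.0555) and *Gm30873* (0.0738) did not.

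**Figure D2:**
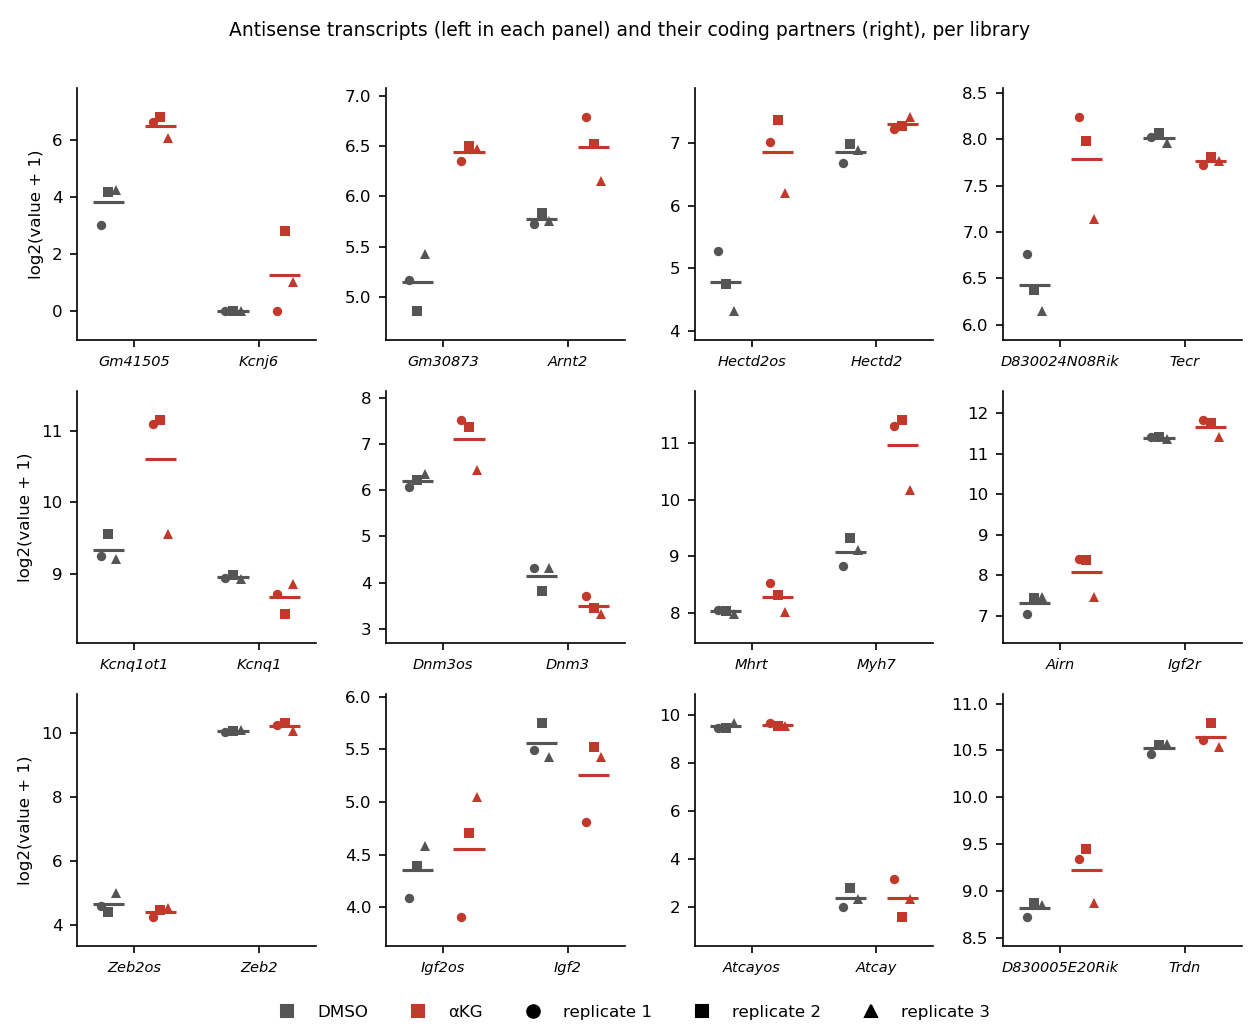
Values on the log2(value + 1) scale (vertical axis, a range of its own for each panel) of 12 antisense transcripts (left in each panel) and their coding partners (right) in DMSO (grey) and αKG (red) libraries, with symbols for replicates 1 to 3 and bars for group means. *Gm41505*, *Gm30873*, *Hectd2os* and *D830024N08Rik* are separated between groups, and αKG replicate 3 (triangle) is the lowest αKG point in many panels.

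Next by p stood *Gm44777*, *Kcnq1ot1*, *Dnm3os* and *Gm12352*, none of which passed. *Gm44777*, tail to tail with the phosphoinositide kinase gene *Pik3c2a*, was at 5, 6 and 8 against 23, 19 and 15 (log2 difference 1.45, adjusted p = 0.0506). *Gm12352* was the only one of these with lower values in αKG, at 16, 20 and 20 against 5, 4 and 12 (−1.42, adjusted p = 0.0784). It is head to head with *Mien1*, which was at 76, 65 and 75 against 59, 57 and 57 (−0.31, adjusted p = 0.224), so that both genes of the pair had lower values in every αKG library.

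Of 52 well-known antisense transcripts on the list used here, 9 were in the table, and none passed the test. Without αKG replicate 3 the count was 5 of 9, all higher (*Kcnq1ot1*, *Dnm3os*, *Airn*, *Tsix* and *Mhrt*), where 11.5% of all antisense transcripts and 37.2% of all genes were called. In the 6 libraries their median log2 difference was 0.53 (0.14 over all 890), and 8 of the 9 had higher mean log2 values in αKG. In 4 the groups did not overlap, all higher, or 44.4% against 7.75% of all antisense transcripts and 13.7% of all genes. The 9 were more abundant, with a median mean of 22.5 units against 3 over all 890. Among antisense transcripts, 10.7% were higher without overlap at a mean of 10 to 50, and 20.5% at 50 or more. The shares over all 890 are thus not matched for level. *Kcnq1ot1*, the most abundant antisense transcript, is read from the paternal chromosome inside *Kcnq1*, whose product forms the pore of a slow cardiac potassium channel. It was at 605, 749 and 587 in DMSO and at 2180, 2280 and 751 in αKG. Replicates 1 and 2 lay far above DMSO, and replicate 3 exceeded the highest DMSO library by 2 units. Its log2 difference was 1.27 ± 0.35 (adjusted p = 0.0681), and 1.79 without αKG replicate 3 (adjusted p = 0.000352). *Kcnq1* ran the other way, at 490, 504 and 485 against 420, 345 and 461 (−0.28 ± 0.11, adjusted p = 0.13).

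*Airn* is read from the paternal chromosome through the start of *Igf2r*, the receptor that clears insulin-like growth factor 2 from the cell surface. *Airn* was at 131, 171 and 174 against 335, 330 and 175 (log2 difference 0.77 ± 0.23, adjusted p = 0.0843), and *Igf2r* at 2714, 2702 and 2638 against 3654, 3453 and 2713 (0.27 ± 0.10, adjusted p = 0.111). In both, αKG replicates 1 and 2 were high and replicate 3 lay next to the DMSO libraries, and without replicate 3 both were called higher (adjusted p = 0.00223 and 0.000908). *Igf2os* was at 16, 20 and 23 against 14, 25 and 32, and *Igf2*, the growth factor gene it meets head to head, at 44, 53 and 42 against 27, 45 and 42. The groups overlapped in both, and replicate 3 was not low among the αKG libraries, unlike for *Kcnq1ot1* and *Airn*.

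*Dnm3os*, a precursor of microRNAs 199a and 214 inside the dynamin gene *Dnm3*, was at 66, 73 and 80 against 183, 164 and 86 (log2 difference 0.91 ± 0.25, adjusted p = 0.0719). *Dnm3* was at 19, 13 and 19 against 12, 10 and 9 (−0.66, adjusted p = 0.208), so that the groups did not overlap in either gene and the directions were opposite. The fibroblast marker sum was likewise high in αKG replicates 1 and 2 (5603 and 5435) and within the DMSO range in replicate 3 (2461 against 2418 to 2581). The part of other cells in the *Dnm3os* value was not tested. Without αKG replicate 3 *Dnm3os* was called higher (adjusted p = 0.00111). *Tsix*, which lies opposite the non-coding *Xist* and so has no coding partner, was at 4, 5 and 6 against 22, 17 and 8 (1.38 ± 0.43, adjusted p = 0.087, and 0.00672 without αKG replicate 3). *Zeb2os*, inside the gene of the transcription factor ZEB2, was at 23, 20 and 31 against 18, 21 and 22, with overlapping groups. *Hotairm1* (0, 1 and 0 against 1, 2 and 0) and *Hoxb3os* (0, 0 and 1 against 2, 0 and 1) were at the limit of detection.

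Several antisense transcripts of cardiac genes were abundant. *Myh7*, the slow or β-myosin heavy chain, was at 453, 641 and 550 in DMSO and at 2535, 2732 and 1157 in αKG (log2 difference 1.88 ± 0.28, adjusted p = 0.0146). Opposite it, *Gm31251* was at 302, 358 and 312 against 516, 429 and 319 (0.35 ± 0.16, adjusted p = 0.176), and *Mhrt* at 266, 262 and 252 against 370, 317 and 259 (0.26 ± 0.13, adjusted p = 0.206). Their αKG replicate 3 lay within or next to the DMSO range, whereas that of *Myh7* did not. Per kilobase of exon, the mean level of *Gm31251* (299) and *Mhrt* (237) exceeded that of *Myh7* (156). Where strand was not used, reads from exonic bases that both strands share would be dropped, and the effect on these levels was not tested. *D830005E20Rik*, inside the gene of the calcium release protein triadin (*Trdn*), was at 421, 468 and 460 against 649, 696 and 468 (0.41, adjusted p = 0.0997). *Trdn* was at 1410, 1501 and 1522 against 1560, 1777 and 1483, with overlapping groups.

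The remaining members of highest mean showed small differences. *Atcayos* was at 700, 707 and 817 against 816, 733 and 745 (0.05 ± 0.08, adjusted p = 0.736), although its partner *Atcay*, a neuronal gene, was nearly silent at 2 to 8 in all libraries. *Brip1os* was at 340, 303 and 270 against 293, 303 and 397, while *Ints2*, a subunit of the Integrator complex that lies inside it, was called higher, at 169, 147 and 156 against 245, 253 and 211 (0.58 ± 0.11, adjusted p = 0.035). *6330403L08Rik*, head to head with the growth factor gene *Pdgfa*, was at 414, 409 and 396 against 232, 248 and 402 (−0.51, adjusted p = 0.11). *Gm26782*, head to head with the telomerase component gene *Tep1*, was at 291, 295 and 285 against 354, 388 and 330 (0.30, adjusted p = 0.0843), and *Tep1* at 196, 216 and 208 against 286, 253 and 245 (0.34, adjusted p = 0.0843). In this last pair neither gene overlapped between groups.

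Whether an antisense transcript and its partner moved in the same direction was counted over all 808 pairs, each measured in the same 6 libraries. Both had a higher mean log2 value in αKG in 241 pairs and both a lower one in 196. The antisense transcript was higher and the partner lower in 221, the reverse held in 122, and 28 pairs had a difference of exactly 0. Directions were thus shared in 54.1% of pairs, and in 52.9% of the 157 pairs with a mean of at least 10 in both genes. The partner was higher in 52.1% of the 463 pairs with a higher antisense transcript and in 38.4% of the 318 with a lower one. Across pairs, Pearson's r of the 2 log2 differences was 0.21 and Spearman's rho 0.21, a description over pairs that share libraries and, in part, partners. In 0 pairs were both genes called.

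**Figure D3:**
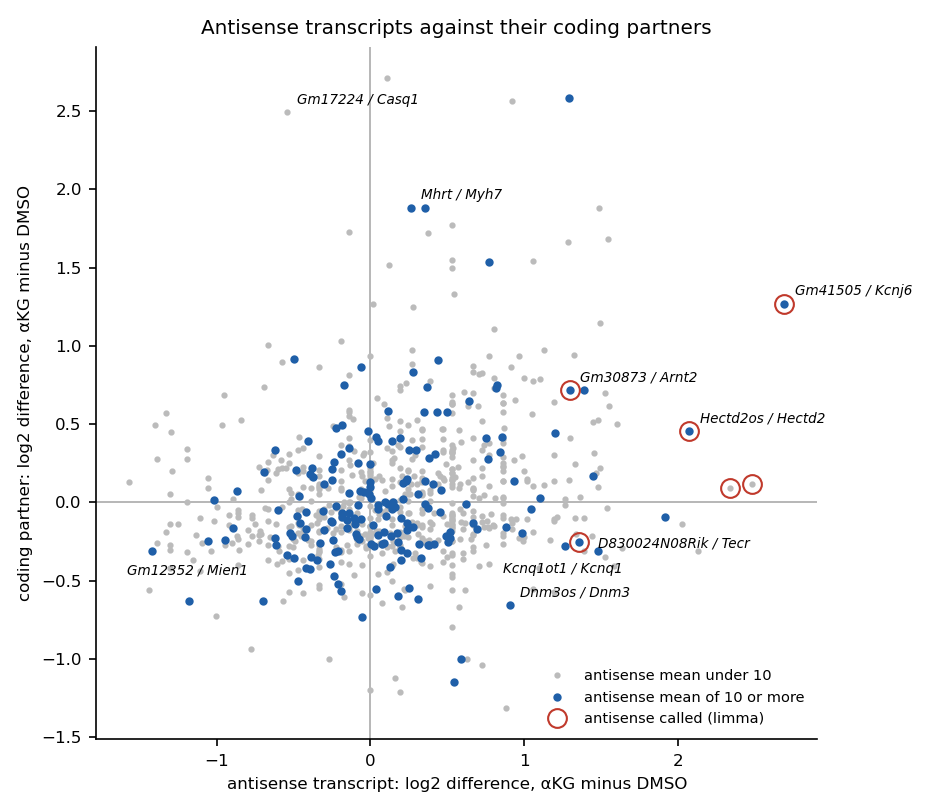
Log2 difference, αKG minus DMSO, of each coding partner (vertical axis) against that of its antisense transcript (horizontal axis) for 808 pairs, with grey points for antisense means under 10, blue points for 10 or more, and red rings around the 6 called antisense transcripts. Points fill all 4 quadrants, with 241 pairs at upper right and 221 at lower right.

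The likeness of the 2 differences varied with the place of the antisense transcript. Head-to-head pairs had an r of 0.37 (n = 258) and a rho of 0.31, and those with an antisense mean of at least 10 an r of 0.48 (n = 73) and a rho of 0.37. For tail-to-tail pairs r was 0.16 (n = 182), for antisense transcripts inside the partner with overlapping exons 0.18 (n = 223), and for those inside the partner with no exon overlap −0.00 (n = 124). At an antisense mean of at least 10, r was 0.32 for tail-to-tail pairs (n = 45). Inside the partner it was then 0.10 with overlapping exons (n = 36) and −0.33 with no exon overlap (n = 17). The 21 pairs with the partner inside the antisense transcript had an r of 0.32 and a rho of 0.41, and 66.7% of them shared a direction, against 55.4% of head-to-head pairs. The differences between these coefficients were not tested. Among head-to-head pairs of higher level, both genes were lower in αKG in 29 and both higher in 12, against 17 with a higher antisense transcript only and 14 with a higher partner only.

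Pairs in which the groups overlapped in neither gene numbered 43. Of these 25 shared a direction (15 higher, 10 lower), 16 had a higher antisense transcript and a lower partner, and 2 the reverse. Taken singly, 7.67% of paired antisense transcripts were higher and 3.09% lower without overlap, and of partners 14.6% and 22.8%. Whether the pair counts differ from those of unrelated genes with these shares was not tested. With both means at 10 or more there were 12 of shared and 7 of opposite direction. Besides *D830024N08Rik*, *Kcnq1ot1* and *Dnm3os* with their partners, the opposite pairs were the following. *A030001D20Rik* was at 24, 22 and 30 against 31, 41 and 40, while *Rasip1*, a Ras-interacting protein of endothelial cells, was at 48, 37 and 50 against 26, 12 and 24 (−1.15, adjusted p = 0.0676). The endothelial marker sum was also lower in αKG, at 582 to 858 against 1274 to 1429, and its part in the *Rasip1* value was not tested. *6230400D17Rik* was at 31, 39 and 35 against 40, 48 and 43, and *Sec24c*, a coat protein of vesicles that leave the endoplasmic reticulum, at 743, 759 and 726 against 626, 547 and 684. *Gm13528* was at 16, 15 and 18 against 25, 22 and 23 inside *Ralgps1*, an exchange factor for Ral GTPases, which was at 136, 155 and 153 against 129, 131 and 122. *Gm20655* was at 7, 13 and 15 against 19, 20 and 16, and its head-to-head partner *Txlnb* at 2078, 2093 and 2146 against 1940, 1969 and 1866. None of these partners or antisense transcripts passed the test except *D830024N08Rik*.

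Without αKG replicate 3, both genes were called in 55 pairs, 27 with both higher, 10 with both lower, 13 with the antisense transcript higher and the partner lower, and 5 with the reverse. At that setting 51.2% of partners were called, so that a called antisense transcript often has a called partner. *Kcnq1ot1* with *Kcnq1* and *D830024N08Rik* with *Tecr* were among the pairs of opposite direction, and *Airn* with *Igf2r*, *Hectd2os* with *Hectd2*, *Mhrt* and *Gm31251* with *Myh7*, and *6330403L08Rik* with *Pdgfa* among those of shared direction.

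Antisense transcripts that lie in partner introns had the highest median difference over the 3 αKG libraries, which came from replicates 1 and 2. With the antisense transcript inside the partner and no exon overlap, the median log2 difference was 0.33 and 71.0% of 124 were higher in αKG. With overlapping exons it was 0.14 and 57.0% of 223, tail to tail 0.17 and 61.0%, and head to head 0.00 and 48.1%. With quantile normalisation these medians were −0.00, −0.20, −0.11 and −0.34, so that the direction depended on the scaling and the order of intronic above head-to-head transcripts did not. The intronic group had medians of 0.67, 0.39 and 0.00 in αKG replicates 1 to 3. Those inside the partner with overlapping exons were at 0.23, 0.25 and 0.03, tail to tail at 0.17, 0.15 and 0.12, and head to head at −0.00, 0.04 and 0.02, so that in replicate 3 the intronic group was the lowest of these. Several other kinds of non-coding gene were also highest in replicate 1 and lowest in replicate 3, with 1.20, 1.09 and 0.22 for the 219 sense_intronic genes, which lie in introns on the strand of their host, 1.25, 1.14 and 0.24 for the 1532 TEC genes (loci that await experimental support), and 0.56, 0.52 and 0.00 for the 773 lincRNA genes. Others did not show this order, with 0.28, 0.42 and 0.14 for the 148 snoRNA genes and −0.09, 0.00 and −0.00 for the 126 bidirectional_promoter_lncRNA genes. Reads of unspliced partner RNA that fall on an antisense exon would be counted for the antisense transcript where strand was not used, and the part of such reads in these medians was not tested.

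**Figure D4:**
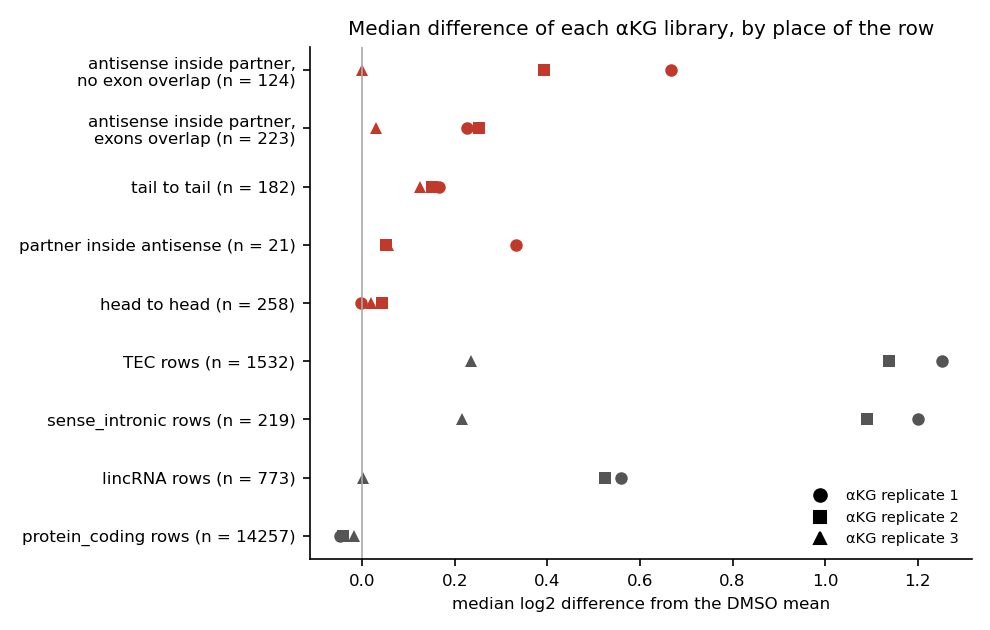
Median log2 difference of each αKG library from the DMSO mean (horizontal axis) for antisense transcripts by their place relative to the partner (red) and for other biotypes (grey), with n genes or pairs beside each name and symbols for αKG replicates 1 to 3. Intronic antisense transcripts lie at 0.67, 0.39 and 0.00, below the sense_intronic and TEC genes, and above head-to-head antisense transcripts (−0.00, 0.04 and 0.02) in replicates 1 and 2 but not in replicate 3.

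Of the 773 coding partners, 33 were called higher and 13 lower, which is 5.95%, against 4.52% of all protein_coding genes. Groups did not overlap for 113 partners that were higher (14.6%) and 176 that were lower (22.8%), close to the 13.3% and 19.5% of all protein_coding genes. Without αKG replicate 3, 396 partners were called, or 51.2%, against 37.2% of all genes. The called partners belong to 50 pairs. In 32 of these both genes were higher in αKG and in 4 both were lower, while in 9 the antisense transcript was higher and the partner lower and in 5 the reverse. The antisense transcript was higher in 82.0% of these pairs, against 57.3% of all pairs, and the partner in 74.0%, against 46.5%. These pairs were taken for a called partner, some share a partner, and the difference from all pairs was not tested. None of these 50 antisense transcripts was itself called.

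Partners were also grouped by lists of gene function. The list of contraction and calcium genes held 15 partners in 18 pairs, and 14 pairs had both genes higher, 1 both lower, 2 the antisense transcript only and 1 the partner only. Median log2 differences were 0.60 for these antisense transcripts and 0.33 for the partners, against 0.14 over all antisense transcripts and −0.04 over all partners, and 4 of 15 partners, all higher, but 0 antisense transcripts were called, where 4.52% of all protein_coding genes were. The antisense medians were 1.15, 0.52 and 0.14 in αKG replicates 1 to 3, at a median mean of 6.67 units. Across these 18 pairs Pearson's r of the 2 log2 differences was −0.11. Without αKG replicate 3, 14 of the 15 partners were called (12 higher, 2 lower), at a setting where 51.2% of all 773 partners were. Titin (*Ttn*), the spring of the sarcomere, was at 51569, 54216 and 53157 against 80306, 84136 and 55569, and *Gm13938* inside it at 11, 11 and 4 against 23, 27 and 12, with no overlap in either. *Casq1*, a calcium store protein, was at 38, 68 and 67 against 454, 488 and 145 (2.49 ± 0.42, adjusted p = 0.0242), and *Gm17224* inside it at 6, 11 and 9 against 8, 4 and 5. The cardiomyocyte marker sum was higher in αKG replicates 1 and 2 than in DMSO, and its part in these values was not tested.

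Matrix and vessel genes gave 11 pairs, of which 9 had both genes higher and 2 the partner only, with medians of 0.33 for the antisense transcripts and 0.63 for the partners. These antisense transcripts had a median mean of 2.5 units. Their medians were 0.95, 0.00 and −0.02 in αKG replicates 1 to 3, so that the difference came mainly from replicate 1. Of 11 partners 3 were called, all higher, and 10 without αKG replicate 3, where 51.2% of all partners were. *Itga9*, an integrin subunit, was at 705, 795 and 884 against 1311, 1278 and 1366 (0.74 ± 0.08, adjusted p = 0.00624), *Itga1*, another, at 522, 612 and 550 against 986, 981 and 758 (0.69 ± 0.11, adjusted p = 0.0203), and *Adamts9*, a matrix protease, at 514, 494 and 449 against 717, 647 and 588 (0.42 ± 0.09, adjusted p = 0.0445). The fibroblast sum was high in αKG replicates 1 and 2 and within the DMSO range in replicate 3, and the part of other cells in the values of these 3 genes was not tested. Developmental transcription factors gave 14 pairs (6 both higher, 3 both lower, 1 antisense only, 3 partner only and 1 at 0), with medians of 0.05 and 0.05. Of its 12 partners 1 was called higher and 1 lower, and 8 (66.7%) were called without αKG replicate 3, against 51.2% of all partners. *Prrx1*, a homeobox factor of mesenchyme, was called higher, at 727, 709 and 699 against 837, 847 and 897 (0.27 ± 0.06, adjusted p = 0.0495), opposite the scarce *Gm20471* (mean 1.5). *Irx3*, another homeobox factor, was called lower, at 656, 656 and 697 against 406, 418 and 547 (−0.56 ± 0.11, adjusted p = 0.036), while *Irx3os*, head to head with it, was at 24, 28 and 28 against 19, 25 and 26. Chromatin regulators gave 7 pairs, 5 of them with a higher antisense transcript and a lower partner, 1 with both higher and 1 at 0 (medians 0.53 and −0.15), and no gene of either kind was called. Here the antisense medians were 0.17, 0.14 and 0.76 in αKG replicates 1 to 3, at a median mean of 2.83 units. Energy metabolism gave 7 pairs (2 both higher, 1 both lower, 3 antisense only, 1 partner only), where *Gm15283*, which spans *Hif1a*, was at 4, 5 and 4 against 44, 59 and 2. Cell cycle and DNA repair gave 5 pairs, 2 with both higher and 3 with the partner only. Without αKG replicate 3, called partners numbered 4 of 7 for chromatin regulators and 3 of 6 for energy metabolism. For cell cycle and DNA repair it was 3 of 3. Lists of this size describe these pairs alone.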

How the data were processed

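Total RNA of 6 neonatal CM cultures was sequenced. The submitters' processing notes name Trimmomatic 0.39, STAR 2.7.10a, featureCounts 2.0.3 and DESeq2 1.30.1 and the build mm10. By the study's methods the authors gave featureCounts any read touching an exon, dropped those shared by genes or by loci, and tested with DESeq2. The deposited values are scaled reads that the authors rounded to whole numbers, and are treated as a score rather than as counts, so no count model was used. Every listed gene reached 2 units in at least 1 library.

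Rows with the biotype antisense were paired by the table's coordinates with protein_coding rows on the opposite strand (at least 1 base, longest overlap kept). Exons came from GENCODE M21, in which 99.0% of rows had identical positions. The members, lists and naming rule were chosen with earlier results of these data known. Named were the antisense transcripts called with a mean of at least 10, the next by p up to 8, the 8 of highest mean, the pairs of opposite direction whose groups do not overlap (means of at least 10), the well-known antisense transcripts, and the partners of all these. The lists were contraction and calcium, matrix and vessels, developmental transcription factors, chromatin regulators, energy metabolism, and cell cycle and DNA repair.

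limma 3.58.1 (R 4.3.3, variance trend) was fitted on log2(value + 1) over all 20066 rows and 6 libraries with treatment as its only term, two-sided, with Benjamini-Hochberg adjustment over all rows. A fold on this scale understates the change of low genes. Python 3.11.15 was used for pairing and plots. Reads were estimated from the spacing of low values, which gave the value of 1 read. On simulated data, 12 of 12 such values over 20066 rows were recovered within 0.1%, and limma called 92 of 100 genes changed 2-fold and 100 of 100 changed 4-fold of 18761, with 2 unchanged genes called. Simulated spread was that within groups of low noise, with no library set apart as αKG replicate 3 was. The changed genes were drawn only from genes with more reads than most antisense transcripts, whose median was 3 units. Recovery at that level was therefore not tested. The p-values measure the spread between these samples only. DMSO replicates 2 and 3 differed over all genes by about the sampling noise (chi-square per gene 1.02) but not over cell cycle genes (6.2), and were counted separately. For αKG replicates 1 and 2 it was 1.52 over all genes, 1.08 over antisense transcripts and 2 over cell cycle genes. Against αKG replicate 3 they stood at 10.8 and 9.83 over all genes. Counting error covers reads, not molecules.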

Additional observations from a re-analysis of the deposited data

How the results depend on the processing

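The number of calls was the least stable result. Of 6 antisense transcripts called, 2 were called with the replicate block, 0 with DMSO replicates 2 and 3 averaged, 2 with no mean trend, 90 at an unadjusted p under 0.05, and 0 to 102 when a library was left out. That count was 2 without DMSO replicate 1, 0 without DMSO replicate 2 or 3 or αKG replicate 1 or 2, and 102 without αKG replicate 3. Of 46 partners called, 28 were called with a pseudocount of 0.1, 6 with the replicate block, 4 with DMSO replicates averaged, 2 with no mean trend, 24 by limma-voom on estimated reads, 281 at an unadjusted p under 0.05, 27 with an overlap of at least 50% of the antisense row, and 0 to 396 when a library was left out. For the partners it was 8 without DMSO replicate 1, 0 without DMSO replicate 2 or 3 or αKG replicate 1 or 2, and 396 without αKG replicate 3. Every fit with 1 library left out has the same, smaller number of degrees of freedom, and the cause of these counts was not tested. Replicate numbers did not pair the samples (correlations of deviations −0.07, 0.14 and 0.00).

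Pairs of shared direction numbered 437 of 808, and 83 of 157 with a mean of at least 10, 252 of 495 with an overlap of at least 50% and 25 of 43 whose groups do not overlap, where fewer pairs are counted. The median antisense difference moved from 0.138 to −0.192 with quantile normalisation, which moved the median of all genes from 0.037 to −0.056, and the cause was not tested. Of 728 values of named genes under alternatives, 624 kept direction and call, 65 lost and 27 gained a call, and 12 changed sign, none of them a called gene. Sign changes arose with quantile normalisation for *Igf2os* (−0.22) and *Hoxb3* (−0.11), and *Atcay* was at 0.02 with a pseudocount of 5 or by limma-voom and at 0.07 with DMSO replicates averaged. Leaving out a library gave −0.00 to 0.12 for *Atcayos*, −0.02 to 0.20 for *Brip1os*, −0.05 to 0.52 for *Igf2os*, −0.17 to 0.83 for *Hoxb3* and −0.42 to 0.37 for *Atcay*. The median antisense transcript stood at 3 units, and how far this depth limits detection at each level was not tested.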

Other observations

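Antisense transcripts with a single exon block (125 pairs) had a median log2 difference of −0.01 and were higher in αKG in 49.6% of pairs, against 0.16 and 58.7% for those with several blocks (681 pairs). The 82 without a coding partner had a median of 0.04, 51.2% were higher, and 0 were called by limma. At an unadjusted p under 0.05 there were 9 of 82 (11%), against 10.1% of all antisense transcripts and 28.1% of all genes.

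A few further pairs, chosen after their values were seen, had groups that overlapped in neither gene and a shared direction. *A730056A06Rik* was head to head with *Rgma*, a guidance receptor ligand, with log2 differences of −1.18 and −0.63. *4732471J01Rik* spans *Lipe*, the hormone-sensitive lipase, with 1.39 and 0.72. *Sorbs2os* lies inside the sarcomere adaptor gene *Sorbs2*, with 0.43 and 0.58. *1810034E14Rik* lies inside *Cdc14b*, a cell cycle phosphatase, with −0.62 and −0.27. Of these genes, *Lipe* and *Sorbs2* were called by limma and the others were not.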
